A study of Mus musculus with 6 samples.

Results

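The genes of fatty acid and triglyceride synthesis were followed in inguinal white adipose tissue of mice lacking Atf7, a leucine zipper protein that binds DNA and belongs to the ATF/CREB group of transcription factors. The members were chosen by name, as a list of 35 genes for making fatty acids from acetyl-CoA, supplying NADPH, desaturating the products and assembling triglycerides, with their transcription factors. A probe set naming the gene alone was found for 33 of the 35, among 19937 genes and 34760 probe sets in all. G6pdx, a source of NADPH in the pentose phosphate pathway, and Nr1h2, a liver X receptor, were not analysed here. The 33 were 18 genes of fatty acid synthesis, 11 of glycerolipid assembly and 4 regulators.

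Total RNA was hybridised to 6 Affymetrix arrays, 3 labelled ATF7 KO (knockout, KO) and 3 labelled WT (wild type). The tissue came from C57BL/6 males, 5 weeks old, with no treatment named, and both genotypes were littermates bred from Atf7 heterozygotes. Whether each array holds 1 animal is not stated, so p-values measure only the spread between these arrays. The part of Atf7 that the allele removes, and whether the loss is restricted to a cell type, are not given in the sources used here. The study addressed Atf7 in the differentiation of adipocytes and in their thermogenic program, and the lipid synthesis genes are part of what a mature fat cell expresses. Values are log2 expression per probe set, so a difference of 1 is a doubling, and levels are set only against the same gene on other arrays.

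Fat cells build fatty acids in the cytosol from acetyl-CoA, which comes from citrate or acetate, and reduce them with NADPH. Desaturases introduce double bonds, and the finished acyl chains are esterified stepwise onto glycerol phosphate, or onto monoacylglycerol, to give the triglyceride that is stored. Srebf1 (SREBP1), Mlxipl (ChREBP) with its partner Mlx, and the liver X receptors raise the transcription of many of these enzymes in response to insulin, glucose and sterols.

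Arrays of both groups correlated between 0.984 and 0.990 across probe sets, except KO replicate 3, which correlated at 0.969 to 0.981 with the others and therefore stood apart. Of 2 Atf7 probe sets, one was lower on every KO array (6.22 to 6.53) than on every WT array (8.95 to 9.20), with an adjusted p of 0.00658 in limma over all probe sets. The other was at 9.10 to 9.42 in KO and 9.34 to 9.52 in WT. Of the mature adipocyte markers, 14 were measured. Adipoq was at 12.24 to 12.68, Fabp4 at 12.56 to 12.78 and Plin1 at 11.67 to 12.12. Others spread more, such as Pparg at 11.11 to 12.05 and Lep at 9.52 to 10.46. After centring each gene on the 6 arrays, the mean level of the 14 ran from -0.19 in WT replicate 3 to 0.21 in KO replicate 3. Whether any probe set stood above background was not tested. Levels of other cell types also varied between arrays. A score of 17 T cell and 19 B cell markers, the mean level after centring each gene on the 6 arrays, was 0.49 to 0.73 in WT, and -0.11, 0.58 and -2.32 in KO replicates 1, 2 and 3. The score of 20 skeletal muscle genes ran from -1.20 to 1.97 in WT and from -1.26 to 1.21 in KO.

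The starts of the genes for Mlxipl, Mlx and Gpam are shown because Mlxipl had the largest difference of the measured regulators, while Mlx, its dimerisation partner, and Gpam, the first acyltransferase, had differences near 0. Each window runs from 250 bases before to 50 bases after a start in the RefSeq annotation of GRCm38.p6, and 28 of the 35 genes had such a window. Capitals mark matches, on either strand, to the E-box CACGTG, which ChREBP/Mlx and other basic helix-loop-helix factors bind, to a sterol element written TCACNCCAC, or to TGACG, the core of the cAMP response element TGACGTCA that ATF/CREB factors bind. Mlxipl has 2 windows 17001 bases apart.
Mlxipl, upstream start, chr5:135089640-135089939, plus strand: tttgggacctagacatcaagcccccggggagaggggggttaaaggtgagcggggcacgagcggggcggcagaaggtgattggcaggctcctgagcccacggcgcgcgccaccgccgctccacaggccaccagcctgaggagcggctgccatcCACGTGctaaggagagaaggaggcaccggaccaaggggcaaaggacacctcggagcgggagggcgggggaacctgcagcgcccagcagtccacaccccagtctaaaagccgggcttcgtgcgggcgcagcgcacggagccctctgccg
Mlxipl, downstream start, chr5:135106641-135106940, plus strand: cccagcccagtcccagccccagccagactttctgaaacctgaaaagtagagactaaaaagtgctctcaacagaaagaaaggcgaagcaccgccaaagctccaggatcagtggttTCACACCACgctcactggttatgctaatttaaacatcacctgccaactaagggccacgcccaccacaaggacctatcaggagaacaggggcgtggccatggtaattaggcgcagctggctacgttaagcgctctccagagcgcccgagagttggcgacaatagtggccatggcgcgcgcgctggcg
Mlx, chr11:101087040-101087339, plus strand: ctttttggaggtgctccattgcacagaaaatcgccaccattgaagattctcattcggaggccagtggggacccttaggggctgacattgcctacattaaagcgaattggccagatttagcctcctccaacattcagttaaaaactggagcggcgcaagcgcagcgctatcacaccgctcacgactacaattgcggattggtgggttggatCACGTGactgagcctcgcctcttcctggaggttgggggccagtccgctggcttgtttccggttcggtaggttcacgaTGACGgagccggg
Gpam, start with matches, chr19:55099428-55099727, minus strand: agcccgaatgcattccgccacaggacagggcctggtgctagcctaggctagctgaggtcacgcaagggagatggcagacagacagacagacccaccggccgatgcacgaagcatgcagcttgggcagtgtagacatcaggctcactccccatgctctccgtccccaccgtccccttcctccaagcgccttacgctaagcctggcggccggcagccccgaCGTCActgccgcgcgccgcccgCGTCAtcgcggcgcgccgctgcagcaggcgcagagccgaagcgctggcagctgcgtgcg

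The upstream Mlxipl start had an E-box 98 bases before it, and the downstream start had a sterol element 136 bases before it. Mlx had an E-box 40 bases before its start and TGACG 37 bases after it. Gpam had TGACG on the opposite strand 31 and 9 bases before the start shown, and a second Gpam window had no match. The full element TGACGTCA was in 0 of the 28 genes' windows and in 2.03% of 27025 genes with a window. TGACG was in 5 of the 28 (17.9%) against 23% of all, namely Gpam, Lpin2, Mlx, Nr1h2 and Taldo1. E-boxes stood in 4 of the 28 (14.3%) against 8.09% of all, in Mlxipl, Mlx, Lpin2 and Lpin3, and in Lpin2 the E-box overlapped the TGACG match. The sterol element was in 1 of the 28 (3.57%) against 1.44%. Of the 7 genes with a window whose KO arrays all lay above the WT arrays, 0 had a TGACG match. These letters are a description of the windows and show neither binding nor its lack.

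No lipid synthesis gene passed the adjusted threshold, and most had small positive differences. Of 33 genes, 28 were positive (84.8%, against 53% of all genes), with a median log2 difference of 0.17 beside 0.01 for all genes. That number was 23 without KO replicate 3 (against 48.5%), 20 with the mature adipocyte score as a covariate (against 50.1%) and 18 with the lymphocyte score (against 48.2%). The mean centred level of the 33 genes was -0.16, 0.10 and -0.22 in WT and 0.10, -0.04 and 0.23 in KO, so the groups overlapped. At an adjusted p under 0.05 limma called 0 of the 33, as it called 0% of all genes. The Atf7 probe set that was lower in KO was not part of this fit. At an unadjusted p under 0.05, 6 were higher (18.2%, against 4.99% of all genes) and 0 lower (against 2.48%). Groups did not overlap for 9 genes, all with KO above (27.3%, against 7.96%), and for 0 with KO below (against 5.97%). The 9 were Acaca, Acacb, Acss2, Scd1, Fads2, Fads3, Tkt, Mogat2 and Mlxipl. The number higher at an unadjusted p under 0.05 was 11 without WT replicate 2 (against 4.06% of all genes), 9 without KO replicate 2 (against 10.4%) and 3 without WT replicate 1 (against 4.01%). Genes with KO above numbered 17 without WT replicate 2 (against 13.3%) and 14 without KO replicate 2 (against 20.8%). The 33 genes share their 6 arrays and are not independent replicates of the comparison.

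**Figure D1:**
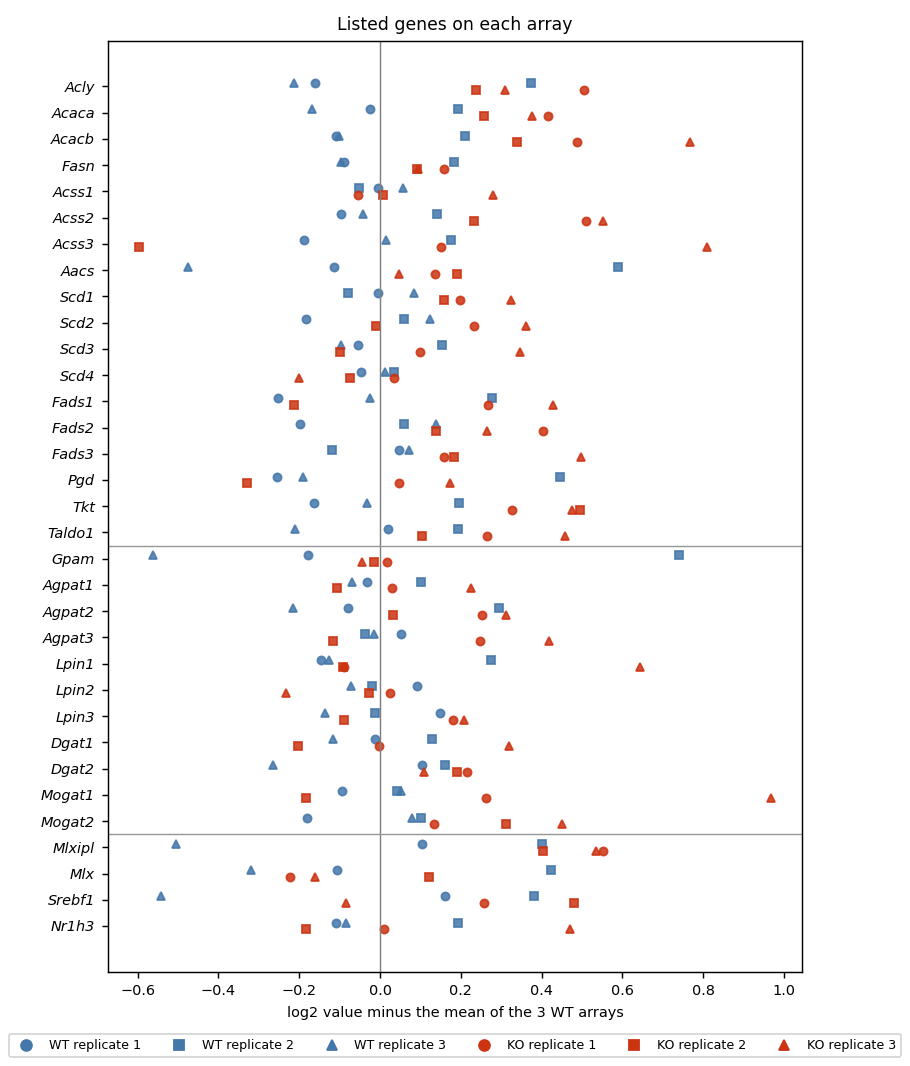
Log2 value of each of the 33 genes on each array, minus the mean of the 3 WT arrays (x axis), with WT in blue, KO in red and the replicate number given by the symbol. Grey lines separate fatty acid synthesis, glycerolipid assembly and regulators. KO replicate 3 (red triangles) was the highest array for 19 genes and WT replicate 3 (blue triangles) the lowest for 12.

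The subgroup of Acly, Acaca, Acacb and Fasn had a median difference of 0.35 over its 4 genes, the largest among the functional subgroups of the 33. Acacb, the acetyl-CoA carboxylase of the outer mitochondrial membrane whose malonyl-CoA restrains fatty acid entry into mitochondria, was at 9.76, 10.08 and 9.77 in WT and 10.36, 10.21 and 10.64 in KO. All KO arrays were above all WT arrays, by 0.53 on the log2 scale (SE 0.15, 95% interval 0.19 to 0.87), or 1.44-fold, the largest difference among the 33, with an adjusted p of 0.622. Its difference was 0.41 without KO replicate 3 and 0.35 after adding the lymphocyte score to the fit. Acaca, the cytosolic carboxylase that commits acetyl-CoA to synthesis, was at 11.54, 11.76 and 11.40 in WT and 11.98, 11.82 and 11.94 in KO. The groups again did not overlap, although WT replicate 2 lay within 0.1 of the lowest KO array, and the difference was 0.35 (SE 0.12, adjusted p 0.622). A second Acaca probe set gave 0.37, also without overlap.

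Acly, which cleaves citrate to acetyl-CoA, was at 10.92, 11.45 and 10.87 in WT and 11.58, 11.31 and 11.39 in KO. WT replicate 2 lay among the KO arrays, and the difference of 0.35 had an SE of 0.17. Fasn, the synthase that makes palmitate, was at 12.95, 13.22 and 12.94 in WT and 13.20, 13.13 and 13.13 in KO. Its highest array was WT replicate 2, and the difference was 0.11 (95% interval -0.13 to 0.36, adjusted p 0.745). The synthase was therefore not shown to differ between the genotypes.

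Among 4 enzymes that activate acetate and related short acids, Acss2 was the one whose groups did not overlap. Acss2, the cytosolic and nuclear acetyl-CoA synthetase, was at 9.83, 10.06 and 9.88 in WT and 10.43, 10.16 and 10.47 in KO. Every KO array was higher, by 0.43 (SE 0.12, 95% interval 0.15 to 0.72, adjusted p 0.622), or 1.35-fold. The mitochondrial synthetase Acss1 was at 8.31 to 8.42 in WT and 8.31 to 8.64 in KO, a difference of 0.08 (SE 0.11). Acss3, another mitochondrial member, was at 8.80 to 9.17 in WT, with KO replicate 2 below all of them at 8.39 and KO replicate 3 above at 9.80. The mean difference of 0.12 had an SE of 0.32, and was -0.22 when KO replicate 3 was left out and 0.48 when KO replicate 2 was. Aacs, which activates acetoacetate in the cytosol, was spread most in WT, at 9.31, 10.01 and 8.95, and least in KO, at 9.56, 9.62 and 9.47, with a difference of 0.12 (SE 0.25).

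Scd1, the main stearoyl-CoA desaturase of fat and liver, was at 13.35, 13.28 and 13.44 in WT and 13.55, 13.52 and 13.68 in KO. All KO arrays were above all WT arrays, by 0.23 (SE 0.09, 95% interval 0.01 to 0.45, adjusted p 0.622), from 13.36 ± 0.08 to 13.58 ± 0.09 (SD, n = 3). Scd2, the paralog known for its expression in brain, was at 10.48, 10.73 and 10.79 in WT and 10.90, 10.66 and 11.03 in KO, with KO replicate 2 inside the WT range and a difference of 0.19 (SE 0.13). The other members of the family, Scd3 and Scd4, were at 5.25 to 5.70 and 4.82 to 5.05 over the 6 arrays, and differed by 0.12 and -0.08. Scd3, Scd2, Scd4 and Scd1 follow one another on chromosome 19, and how far their probe sets read one another's transcripts was not tested.

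Fads1 and Fads2, which insert double bonds into polyunsaturated chains, and the related Fads3 form another row of neighbours on chromosome 19. Fads2 was at 8.67, 8.93 and 9.01 in WT and 9.28, 9.01 and 9.14 in KO. WT replicate 3 and KO replicate 2 both printed as 9.01, so the groups were barely apart, and the difference was 0.27 (SE 0.12). Fads3 was at 10.29, 10.12 and 10.31 in WT and 10.40, 10.42 and 10.74 in KO, a difference of 0.28 (SE 0.12), of which 0.17 was left without KO replicate 3. Fads1 was at 9.19, 9.72 and 9.41 in WT and 9.71, 9.23 and 9.87 in KO. Here KO replicate 2 was near the lowest WT array, and the difference was 0.16 (SE 0.20).

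For NADPH supply, 3 pentose phosphate enzymes were measured. Tkt, transketolase of the non-oxidative branch, was at 10.11, 10.47 and 10.24 in WT and 10.60, 10.77 and 10.75 in KO. It stood above WT on every KO array, by 0.43 (SE 0.12, 95% interval 0.16 to 0.71, adjusted p 0.622), or 1.35-fold. The highest value of Tkt was in KO replicate 2, and its difference ranged from 0.35 to 0.53 without each array in turn. Taldo1, transaldolase, was at 8.51, 8.68 and 8.28 in WT and 8.75, 8.59 and 8.95 in KO, a difference of 0.28 (SE 0.14) with KO replicate 2 below WT replicate 2. Pgd, 6-phosphogluconate dehydrogenase, which releases NADPH, was at 10.48, 11.19 and 10.55 in WT and 10.79, 10.41 and 10.91 in KO, with WT replicate 2 the highest and KO replicate 2 the lowest array (difference -0.04, SE 0.22).

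In the glycerol phosphate route of triglyceride assembly, 5 of 7 genes were positive, with a median of 0.10, and the groups overlapped in all 7. Gpam, the mitochondrial acyltransferase that starts the route, was at 10.03, 10.95 and 9.65 in WT and 10.23, 10.20 and 10.17 in KO. The 3 KO arrays lay within 0.1 of one another, between the WT arrays, and the means were 10.20 ± 0.03 and 10.21 ± 0.67 (SD, n = 3). The difference of -0.01 had a 95% interval of -0.72 to 0.69 and was 0.36 when WT replicate 2 was left out and -0.29 when WT replicate 3 was.

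Agpat2, the acyltransferase whose loss causes lipodystrophy, was at 11.87, 12.25 and 11.74 in WT and 12.21, 11.98 and 12.26 in KO, a difference of 0.20 (SE 0.15). WT replicate 2 was again among the KO arrays. Agpat1 and Agpat3, which also make phosphatidic acid, differed by 0.05 (SE 0.11) and 0.18 (SE 0.14), with KO replicate 2 the lowest array of both. Lpin1, the phosphatidic acid phosphatase most expressed in fat and muscle, was at 10.43, 10.85 and 10.45 in WT and 10.49, 10.48 and 11.22 in KO. KO replicate 3 alone was above the WT range, and the difference of 0.15 (SE 0.22) was -0.09 without that array. Lpin2 and Lpin3 differed by -0.08 (SE 0.10) and 0.10 (SE 0.12).

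Both diacylglycerol acyltransferases, which add the last acyl chain, had overlapping groups. Dgat2 was at 12.68, 12.74 and 12.31 in WT and 12.79, 12.77 and 12.69 in KO. Only WT replicate 3 was clearly lower, and the difference of 0.17 (SE 0.13, 95% interval -0.13 to 0.48) was 0.04 without it. Dgat1 was at 10.98, 11.12 and 10.88 in WT and 10.99, 10.79 and 11.31 in KO, with the lowest and the highest array both in KO (difference 0.04, SE 0.15). Mogat2, a monoacylglycerol acyltransferase better known from the intestine and the direct neighbour of Dgat2 on chromosome 7, was at 5.64, 5.93 and 5.91 in WT and 5.96, 6.14 and 6.28 in KO. It was the 1 assembly gene with all KO arrays above WT, by 0.30 (SE 0.12, adjusted p 0.622). Mogat1 was at 7.15, 7.28 and 7.29 in WT and 7.50, 7.06 and 8.21 in KO. KO replicate 3 carried most of its difference, which was 0.35 (SE 0.27) with that array and 0.04 without it.

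**Figure D2:**
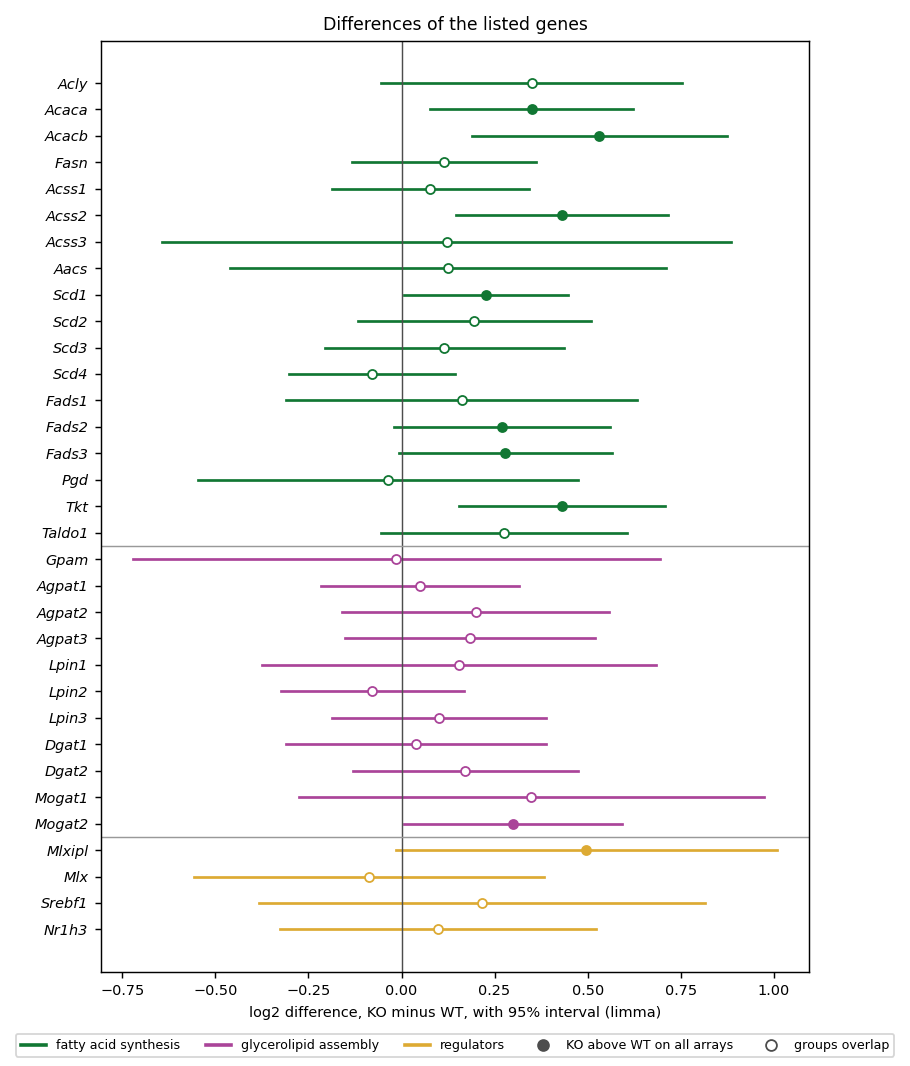
Log2 difference, KO minus WT, of each of the 33 genes with its 95% interval from limma (x axis), in green for fatty acid synthesis, purple for glycerolipid assembly and yellow for regulators. Filled points mark the 9 genes whose KO arrays all lay above the WT arrays, 7 of them in fatty acid synthesis.

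Mlxipl (ChREBP), the glucose-responsive factor, was at 9.15, 9.45 and 8.54 in WT and 9.60, 9.45 and 9.58 in KO. The groups did not overlap, but KO replicate 2 and WT replicate 2 were both at 9.45, and the difference was 0.50 (SE 0.22, 95% interval -0.02 to 1.01, adjusted p 0.622), or 1.41-fold. WT replicate 3 was far below the other arrays, and without it the difference was 0.24. Mlx was at 8.92, 9.45 and 8.71 in WT and 8.80, 9.15 and 8.86 in KO, a difference of -0.09 (SE 0.20). Srebf1 was at 10.10, 10.32 and 9.40 in WT and 10.20, 10.42 and 9.85 in KO. Replicate 3 was the lowest of both groups, and the difference of 0.22 (SE 0.25) was -0.05 without WT replicate 3. Nr1h3, the liver X receptor alpha, was at 8.96, 9.27 and 8.99 in WT and 9.08, 8.89 and 9.54 in KO, a difference of 0.10 (SE 0.18). Mlxipl, Mlx and Srebf1 thus had their lowest value in WT replicate 3.

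Fatty acid synthesis and glycerolipid assembly were set side by side. In synthesis 16 of 18 genes were positive, with a median of 0.21, and 7 (38.9%) had KO above WT on all arrays. For assembly 9 of 11 were positive, with a median of 0.15, and 1 (9.09%) had KO above WT, beside 7.96% of all genes. At an unadjusted p under 0.05, 5 synthesis genes (27.8%) and 1 assembly gene (9.09%) were higher, beside 4.99% of all genes. These counts depended on single arrays: without WT replicate 2, KO was above WT for 11 synthesis and 5 assembly genes (against 13.3%), and without KO replicate 2 for 9 and 4 (against 20.8%). The assembly count was 2 without KO replicate 3 (against 10.4% of all genes) or with a common median (against 9.29%). With dim genes, those under the median level of all genes, left out, it was 0 of 9 (against 9.66%). Mogat2 was among the dim genes. The mean centred level of the synthesis genes was -0.21, 0.06 and -0.17 in WT and 0.13, -0.05 and 0.24 in KO. That of the assembly genes was -0.10, 0.10 and -0.20 in WT and 0.05, -0.09 and 0.24 in KO. In both branches KO replicate 2 lay below WT replicate 2, and KO replicate 3 was the highest array. The synthesis level minus the assembly level was -0.12, -0.04 and 0.02 in WT and 0.08, 0.05 and 0.003 in KO, so WT replicate 3 was above KO replicate 3 and the groups overlapped. The branches were thus not separated on every array, and no test was made of this contrast.

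**Figure D3:**
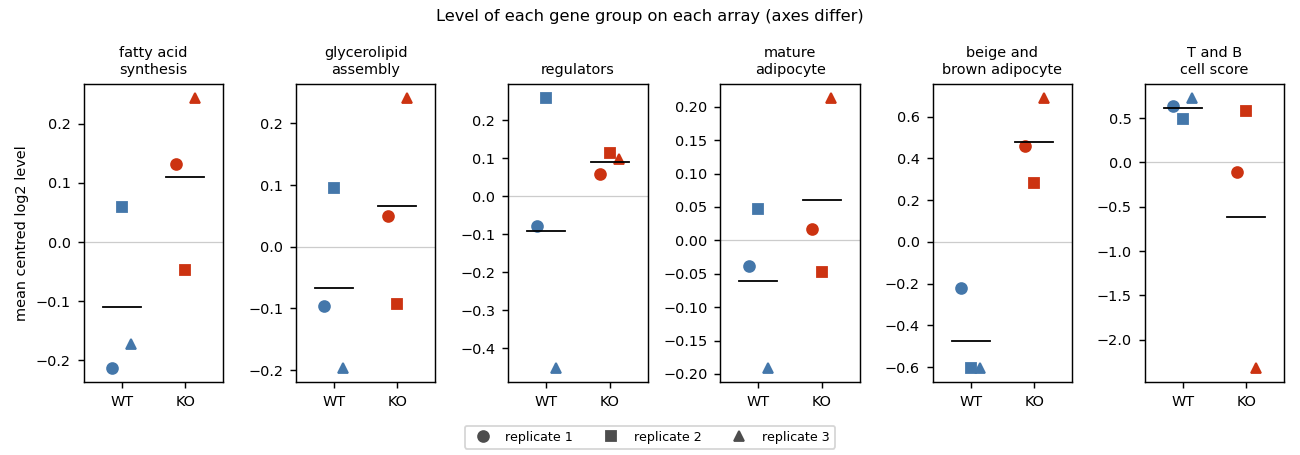
Mean centred log2 level of each gene group on each array (y axis, scaled separately in each panel), with WT in blue, KO in red, the replicate number given by the symbol and a bar at each group's mean. Synthesis, assembly and mature adipocyte genes had their highest level in KO replicate 3, which had the lowest T and B cell score at -2.32.

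The level of the mature adipocyte list varied across arrays much as that of these genes did. The 14 mature adipocyte markers had a level of -0.04, 0.05 and -0.19 in WT and 0.02, -0.05 and 0.21 in KO, with the lowest array (WT replicate 3) and the highest (KO replicate 3) shared with the assembly genes. Of these markers 9 were positive, with a median of 0.14, and 0 passed an unadjusted p under 0.05. In bulk tissue fewer cells of a type and less RNA per cell cannot be told apart. With the mature adipocyte score as a covariate, a fit added after the values were seen, the median was 0.12 for synthesis and 0.002 for assembly, and 20 of 33 genes were positive. Adding the lymphocyte score in its place gave medians of 0.13 and -0.0082, with 18 of 33 were positive. Without KO replicate 3 they were 0.17 and 0.04, with 23 of 33 positive. Without WT replicate 3 they were 0.21 and 0.04. The synthesis median was therefore above the assembly median in these fits. Without WT replicate 1 it was 0.14 against 0.16, the reverse order. Of the 6 genes at an unadjusted p under 0.05, Acacb, Acss2 and Tkt stayed under it with either score. They were 3 of 33, against 2.61% of all genes with the adipocyte score and 2.29% with the lymphocyte score. They had differences of 0.36, 0.33 and 0.38 with the adipocyte score, and 0.35, 0.32 and 0.41 with the lymphocyte score. Acaca, Scd1 and Mogat2 did not, at 0.25, 0.22 and 0.25 with the adipocyte score and 0.31, 0.16 and 0.21 with the lymphocyte score. Mlxipl was at 0.27 and 0.43 in these fits. With the muscle score 6 of 33 were higher at an unadjusted p under 0.05 (against 3.05% of all genes). They were Acly, Acaca, Acacb, Acss2, Fads2 and Tkt. Acacb, Acss2 and Tkt were under an unadjusted p of 0.05 in all 18 fits that were run. These fits reuse the same 6 arrays, and the share of all genes under it in every fit was not counted.

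**Figure D4:**
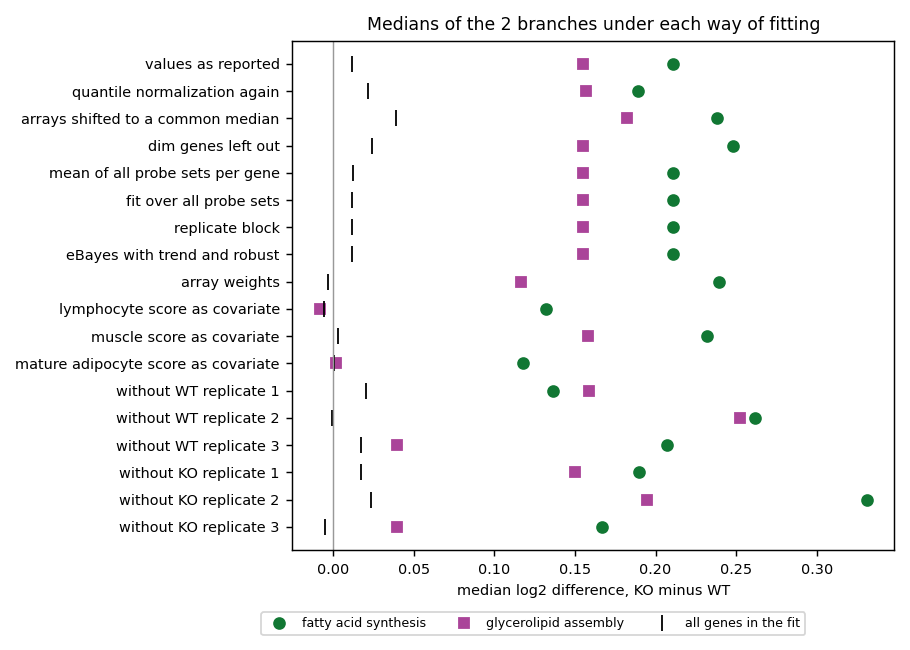
Median log2 difference, KO minus WT, of fatty acid synthesis (green circles), glycerolipid assembly (purple squares) and all genes (black ticks) under each way of fitting (rows). The assembly median came within 0.01 of 0 with the lymphocyte or the mature adipocyte score as a covariate, where the synthesis median was 0.13 and 0.12.

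Other genes of these pathways gave smaller shares. The list of 27 other fatty acid synthesis genes held regulators beside enzymes, among them Srebf2, Insig1 and subunits of AMP-activated kinase. Of these 27, 18 were positive (median 0.06) and 1 (3.7%) was higher at an unadjusted p under 0.05, beside 4.99% of all genes. It was Prkag2, a regulatory subunit of AMP-activated kinase, which phosphorylates and inhibits the carboxylases, at 8.45 to 8.53 in WT and 8.66 to 8.94 in KO, a difference of 0.33 (SE 0.10). Thrsp, a lipogenic protein of fat and liver, and Insig1, which retains SREBPs in the endoplasmic reticulum, each had their highest value in WT replicate 2 and lowest in WT replicate 3, and differed by 0.17 (SE 0.28) and 0.17 (SE 0.24). Of 29 other glycerolipid genes, 18 were positive (median 0.04), with 2 (6.9%) higher and 1 lower at that threshold, beside 4.99% and 2.48% of all genes. The higher count was 0 without WT replicate 3, KO replicate 1 or KO replicate 3 (against 2.99%, 2.81% and 3.1% of all genes). It was 5 of 29 without KO replicate 2 (against 10.4%). That of the synthesis list was 6 of 27 without WT replicate 2 (against 4.06%) and 3 of 27 without KO replicate 2 (against 10.4%). Pcyt1a, which makes CDP-choline for phosphatidylcholine, differed by 0.31 (SE 0.12), and the lysophospholipid acyltransferases Mboat2 and Mboat1 by 0.31 (SE 0.13) and -0.72 (SE 0.28). Without KO replicate 3 Pcyt1a, Mboat2 and Mboat1 differed by 0.18, 0.23 and -0.40. Gpat3, another acyltransferase at the start of assembly, was at -0.27 (SE 0.25). No gene of either list passed the adjusted threshold.

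Thermogenic genes on the same arrays had larger differences. Of 18 beige and brown adipocyte markers, 14 (77.8%) passed an unadjusted p of 0.05 with KO higher, beside 4.99% of all genes. The list's median was 0.83, and the list was chosen with earlier results of these data known. Ucp1, the uncoupling protein of brown and beige fat, was at 5.97 to 7.04 in WT and 8.76 to 9.65 in KO, a difference of 2.91 (SE 0.33, adjusted p 0.237), and Cox7a1, Cidea and Slc27a2 were higher by 1.51, 1.59 and 1.77. Without KO replicate 3 that median was 0.72. Of the lymphocyte markers, 17 of 17 for T cells and 18 of 19 for B cells were negative, with medians of -1.20 and -1.31, or -0.43 and -0.33 without KO replicate 3. At an unadjusted p under 0.05, 4 of 17 T cell and 1 of 19 B cell markers were lower, beside 2.48% of all genes. They were Bcl11b, Skap1, Zap70 and Thy1 of T cells at -0.88, -1.12, -0.88 and -0.52 and Tnfrsf13c of B cells at -1.09. Without KO replicate 3 these were -0.60, -0.55, -0.43, -0.27 and -0.56. Of 15 macrophage markers 10 were positive and 5 negative, with a median of 0.17. Cd14 (0.30) was the 1 at an unadjusted p under 0.05 (6.67%, beside 4.99% of all genes higher).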

How the data were processed

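The deposited log2 values, 1 per probe set and array, were used as the authors made them; RMA, affy and limma are named in the submitters' processing notes, and their versions and the annotation's genome build are not given in the sources used here. The number of arrays limits the precision. A probe set was used where the platform annotation names 1 gene (21640 of 34760; 1321 name several and 11799 have none listed), and the one with the highest mean over the 6 arrays stood for its gene. KO and WT were compared with limma 3.58.1 in R 4.3.3 over 19937 genes, two-sided, with Benjamini-Hochberg adjustment over all of them, no filter and a threshold of 0.05. With 3 against 3 arrays an exact permutation test cannot go below 0.1 and was not used. RMA shrinks differences of dim probe sets, and paralogs may share probes.

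All listed genes are described. Of the other pathway and cell type lists, genes at an unadjusted p under 0.05 (up to 4 per list) are named, with Thrsp, Insig1, Gpat3 and Ucp1. The members and lists were chosen with earlier results of these data known. Alternatives were other normalizations, filters, probe set rules, variance models, covariates and leaving out each array.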

Additional observations from a re-analysis of the deposited data

How the results depend on the processing

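Replicate numbers were not used as pairs in the main fit. Same-numbered arrays had correlations of -0.14, -0.08 and -0.04 between their deviations from the group means. With 3 arrays per group these values cannot show whether the numbers stand for a shared litter or batch. With the replicate block 28 listed genes were positive and 6 passed an unadjusted p under 0.05, the same counts as without it, though Fads3 replaced Scd1, and other assembly genes higher went from 2 to 0. Normalizing again, shifting to a common median, leaving out dim genes or other probe set rules kept the counts of listed genes within 1.5 times. With the mean of probe sets 1 gene of all was lower at the adjusted threshold. Leaving out dim genes took all genes at an unadjusted p from 995 to 618 higher and from 494 to 253 lower. Other assembly genes higher were 4 after quantile normalization or with trend and robust settings (against 5.61% and 5.09% of all genes). They were 1 with dim genes left out or all probe sets fitted (against 6.2% and 4.06%). Array weights did not converge and gave KO replicate 1 a weight of 13.43. At the adjusted threshold of 0.05 they called 1688 of 19937 genes as higher and 1432 as lower in KO. Of the 33 listed genes 8 were higher (16 at an unadjusted p, against 18.4% of all genes). At the adjusted threshold 4 of 27 other synthesis and 3 of 29 other assembly genes were higher, and 1 other assembly gene was lower. The cause was not tested. The unadjusted count was 3 with either the lymphocyte or the mature adipocyte score (against 2.29% and 2.61% of all genes). The latter score was chosen after seeing the data. Without each array in turn the count was 3 to 11, where 2.81% to 10.4% of all genes passed. Positive genes numbered 18 with the lymphocyte score. Genes with KO above numbered 9 to 17 without each array, where 10.4% to 20.8% of all genes did so. The synthesis minus assembly median was 0.12 with array weights, 0.14 with the lymphocyte score, 0.12 with the adipocyte score and -0.022 to 0.17 without each array, and the assembly median was -0.0082 with the lymphocyte score.

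Single genes turned sign as follows. With the lymphocyte score Acss1 was -0.052, Acss3 -0.42, Scd3 -0.068, Fads1 -0.076, Agpat1 -0.089, Agpat3 -0.0082, Lpin1 -0.19, Lpin2 0.022, Lpin3 -0.0017, Dgat1 -0.18, Mogat1 -0.11 and Nr1h3 -0.18. With the adipocyte score Acss3 was -0.24, Aacs -0.067, Scd3 -0.045, Fads1 -0.031, Agpat1 -0.069, Lpin1 -0.13, Dgat1 -0.15, Nr1h3 -0.12, Thrsp -0.14 and Insig1 -0.012. With array weights Acss1 was -0.044, Scd4 0.045, Pgd 0.14, Gpam 0.091 and Lpin1 -0.014. With the muscle score Pgd was 0.078 and Gpam 0.12. With a common median Gpam was 0.013. Without each array in turn the ranges were -0.024 to 0.14 for Acss1, -0.22 to 0.48 for Acss3, -0.11 to 0.42 for Aacs, -0.16 to 0.19 for Pgd, -0.29 to 0.36 for Gpam, -0.039 to 0.13 for Agpat1 and -0.090 to 0.29 for Lpin1. They were -0.10 to 0.16 for Dgat1, -0.25 to 0.12 for Mlx, -0.054 to 0.41 for Srebf1, -0.087 to 0.24 for Nr1h3, -0.079 to 0.52 for Thrsp and -0.0084 to 0.45 for Insig1.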
